A study of Arabidopsis thaliana with 12 samples.

Results

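Transcripts of wild-type Arabidopsis thaliana roots were compared between 30 min of ATP and 30 min of buffer. The comparison takes 6 of the 12 arrays in the series, the 3 labelled Col-0 with ATP and the 3 labelled Col-0 with MES buffer, and was made over all probe sets of the array other than its controls. The plants called wild type were Col-0 that carried aequorin, a jellyfish protein used to report cytosolic calcium, and all 6 arrays share that transgene. Each array held total RNA from the roots of 120 pooled seedlings, 5 days old, that had been kept overnight in the dark in 1 well of buffer with 2 mM MES and 10 mM CaCl2. The ATP wells received ATP and the control wells received MES buffer, and roots were cut 30 min later. The dose is written as 100 mM in the sample titles and as 100 µM in the treatment protocol, so it is not settled here. The other 6 arrays are roots of dorn1-1, Col-0 plants with a chemically induced mutation in a lectin receptor kinase, likewise given ATP (3 arrays) or buffer (3 arrays). They entered the estimate of the spread and the test of a difference between genotypes.

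ATP is an energy carrier inside the cell and a signal outside it. Plant cells release it when they are wounded or touched, and a lectin receptor kinase at the plasma membrane binds it. Binding is followed by a rise in cytosolic calcium, a burst of reactive oxygen and phosphorylation by kinases, and then by transcription of genes that are also switched on by wounding and by microbial elicitors. Calmodulin-like proteins bind the calcium, receptor kinases and resistance proteins watch the cell surface and interior, and peroxidases and wall enzymes remodel the root surface.

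The array reports 1 log2 value per probe set, a group of short probes that together measure 1 transcript, and 22746 probe sets remained after 64 control probe sets were left out. A probe set was called when its limma p-value, adjusted by Benjamini-Hochberg over all probe sets, was under 0.05. By this rule 151 probe sets, 0.664% of those tested, differed between ATP and buffer in wild-type roots. Of these, 109 rose (0.479%) and 42 fell (0.185%). The risers changed by a median of 0.95 on the log2 scale and the fallers by a median of -0.75, while the median of all probe sets was -0.03. At least 2-fold differences were found in 49 of the risers and 5 of the fallers. The 3 ATP arrays lay wholly on one side of the 3 buffer arrays in all 151, and in 33.1% of all probe sets. These are the values on which the 151 were called, so the first count is a description. A gene name was given only where the platform annotation lists exactly 1 gene, which was the case for 64 risers and 21 fallers, and 64 called probe sets were not listed there. The labels call the replicates biological and give each as a separate pool of seedlings.

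**Figure D1:**
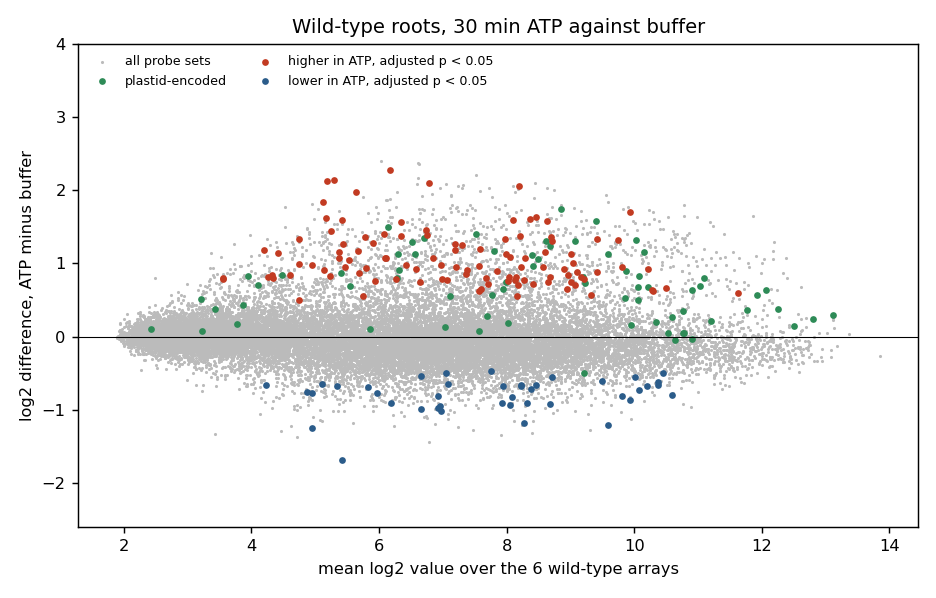
Each point is a probe set, with its mean log2 value over the 6 wild-type arrays on the horizontal axis and the log2 difference, ATP minus buffer, on the vertical axis. The 109 called risers (red) and 42 called fallers (blue) stand among grey points that differ as much without passing, and most of the 69 plastid-encoded probe sets (green) lie above 0.

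Before the genes are described, the purity of the roots needs to be stated, since roots were cut from green seedlings. The plastid genome encodes photosystem, NADH dehydrogenase-like, cytochrome, ATP synthase and ribosomal proteins of the chloroplast, and its transcripts are far more abundant in leaves than in roots. Averaged over the 69 plastid-encoded probe sets, the log2 value came to 9.14, 8.44 and 8.78 for the ATP arrays of the wild type, against 8.12, 8.37 and 7.93 for its buffer arrays. Every ATP array lay above every buffer array. The group means were 8.79 ± 0.35 with ATP and 8.14 ± 0.22 in buffer (SD, n = 3 each), a difference of 0.65 (two-sided exact permutation p = 0.1, the smallest that 3 arrays against 3 allow). Nuclear genes of photosynthesis also had higher values with ATP. Of 19 listed shoot markers, 3 had a probe set with exactly 1 gene in the platform annotation. They were LHCB4.1 (a light-harvesting protein), RCA (which activates Rubisco) and PRK (phosphoribulokinase). Other markers may lie among the probe sets without a gene name here. The mean of the 3 was 11.64 ± 0.48 with ATP and 10.30 ± 0.47 in buffer (SD, n = 3 each, exact permutation p = 0.1). In such samples, more green cells and more plastid RNA per cell cannot be told apart.

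The plastid-encoded genes were not equally far apart between ATP and buffer. Of the 69 probe sets, 66 had a higher mean with ATP, where 44.8% of all probe sets did, and in 36 the 3 ATP arrays lay above the 3 buffer arrays, which held for 13.9% of all probe sets. By limma 0 of the 69 passed, 20 had an unadjusted p under 0.05, all higher (9.8% of all probe sets were higher at that p, and 22.2% passed it in either direction), and the lowest adjusted p was 0.0685, for rpoC1. In a fit of the 6 wild-type arrays alone 20 passed, all higher, as did 5.84% of all probe sets. In dorn1-1, 52 of the 69 had a higher mean with ATP, where 56.1% of all probe sets did, and their median log2 difference was 0.10. The 10 NADH dehydrogenase-like (ndh) genes had the highest median log2 difference, 1.13, and the 20 photosystem genes (psa and psb) had a median of 0.83, each of these 30 being higher with ATP. The gene ndhJ stood at 10.63, 8.83 and 9.73 on the ATP arrays, against 8.09, 8.74 and 7.13 on the buffer arrays. The value of psbA, the reaction-centre protein of photosystem II, was 11.10, 10.20 and 10.78 on the ATP arrays, against 8.92, 9.89 and 9.30 on the buffer arrays. For rbcL, the large subunit of Rubisco, it was 9.61, 9.36 and 9.84 with ATP and 9.25, 8.82 and 8.27 in buffer. The ATP arrays lay above the buffer arrays for all 3 genes. The 15 plastid ribosomal protein genes had a median of only 0.17, with 12 of 15 higher, and rpl32 was the lowest of the 69 at -0.50 (SE 0.48). The 6 cytochrome (pet) genes, 6 ATP synthase (atp) genes and 4 RNA polymerase (rpo) genes had medians of 0.69, 0.57 and 0.18.

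**Figure D2:**
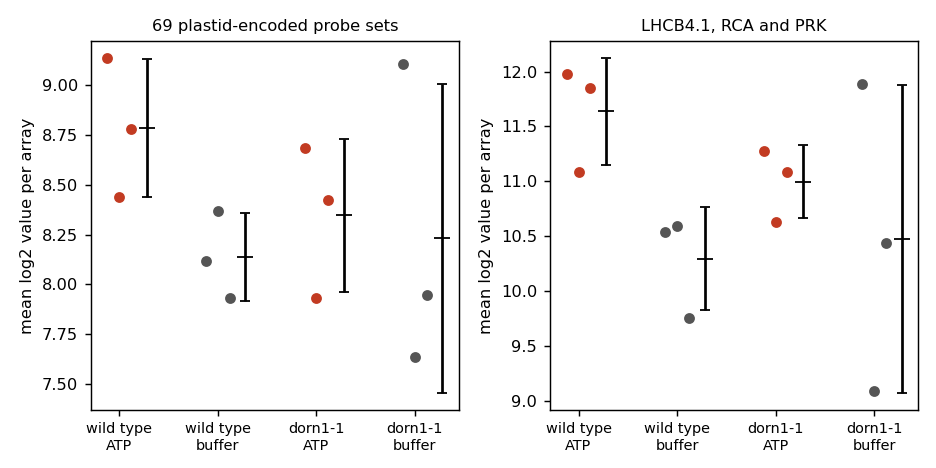
Points are arrays, and the bars beside them give the group mean and SD (n = 3). The left panel plots the mean log2 value of 69 plastid-encoded probe sets and the right panel the mean of 3 nuclear photosynthesis genes, and in both the 3 wild-type ATP arrays lie above the 3 wild-type buffer arrays while the dorn1-1 buffer arrays spread the most.

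Of 19 listed markers of root cells, 3 had a probe set with exactly 1 gene in the platform annotation. PYK10, a beta-glucosidase of root endoplasmic reticulum bodies, stood at 12.58, 12.77 and 12.47 on the ATP arrays, against 12.81, 12.93 and 12.92 on the buffer arrays. The expansins of root hair cells had log2 differences of -0.44 for EXPA7 (SE 0.25) and -0.91 for EXPA18 (SE 0.22). Each of the 3 had a lower mean with ATP and none was called (limma adjusted p = 0.171, 0.326 and 0.0752). The control probe sets for the 3′ and 5′ ends of GAPDH, a sign of RNA integrity, were compared as the 3′ value minus the 5′ value. This difference was -0.60 ± 0.07 with ATP and -0.25 ± 0.10 in buffer (SD, n = 3 each, exact permutation p = 0.1). The part of RNA integrity in the results that follow was not tested. For the plastid level, the plastid-encoded mean was added to the fit as a covariate, so that each change was read at an equal plastid level.

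With the plastid-encoded mean as a covariate, 144 probe sets passed (0.633%). Of these 131 were higher (0.576%) and 13 lower (0.0572%) with ATP, and they include 84 of the 151. All 109 risers kept their sign, with a median log2 change of 0.93 and 74 still called. All 42 fallers kept theirs, with a median of -0.68 and 10 still called. The 151 were called in a fit whose spread includes the dorn1-1 arrays. Probe sets that follow the plastid level there were less likely to be called, which favours small changes under the covariate. Fewer of the 151 were called in other fits with a shoot measure: 25 with the plastid covariate in the 6 wild-type arrays alone, 30 with it and without dorn1-1 buffer replicate 1, and 53 with the nuclear shoot marker mean in its place, which was added after the data were seen. A second check took its slopes from the dorn1-1 arrays alone. They are not among the 6 arrays compared, but their spread decided in part which probe sets were called. For each probe set the slope on the plastid-encoded mean within the dorn1-1 groups was multiplied by the wild-type difference of 0.65 in that mean. The product, called the predicted shift, is what goes with the plastid level in dorn1-1. Its slopes rest on 6 arrays. Among them dorn1-1 buffer replicate 1, with a plastid-encoded mean of 9.11 against 7.64 and 7.95 in its group, weighs heavily. The slopes were not fitted again without that array. This second check was added after the data were seen. Across all 22746 probe sets the predicted shift followed the observed change (Pearson r = 0.74, Spearman rho = 0.58), a description across genes whose values share arrays and the plastid scale. Among the called risers the median predicted shift was 0.06, and among the fallers it was -0.09. Small predicted shifts are favoured here by the way these probe sets were called. The prediction had the sign of the observed change in 75 of the 109 risers and 41 of the 42 fallers, and over the 151 the 2 values had a Pearson r of 0.56.

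Large differences that were not called were set against the same prediction. A total of 711 probe sets (3.13%) differed at least 2-fold, 662 higher and 49 lower with ATP, and 657 of them did not pass. In 508 of these 657 the predicted shift came to at least 0.5 of the observed change. In the 54 that passed, this was the case for 0. The spread of the dorn1-1 arrays enters the limma test, so a probe set that follows the plastid level in dorn1-1 is also less likely to be called.

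**Figure D3:**
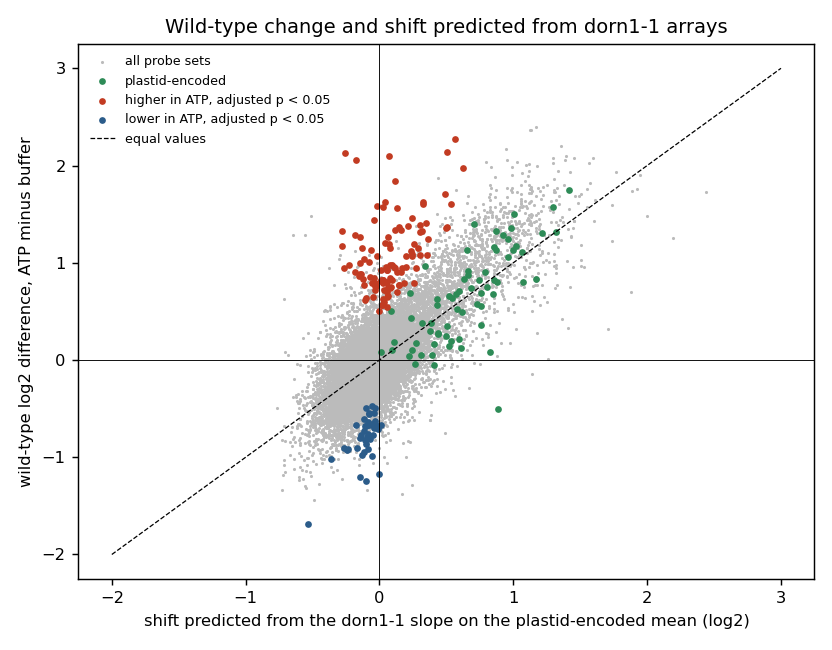
For each probe set, the shift predicted from its slope on the plastid-encoded mean within the dorn1-1 groups is set against the wild-type log2 difference, ATP minus buffer. Grey points and the plastid-encoded ones (green) slope upwards about the dashed line of equal values, while called risers (red, median predicted shift 0.06) and fallers (blue, median -0.09) lie off it.

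The called genes are described by what they encode, an order made after their values were seen, which says nothing of the classes as a whole. Of the called genes 4 encode proteins that bind calcium. AT3G01830, which encodes the calmodulin-like protein CML40, stood at 7.51, 7.63 and 6.79 on the ATP arrays, against 5.01, 5.14 and 4.96 on the buffer arrays. It rose 4.83-fold (log2 change 2.27, SE 0.33, limma adjusted p = 0.0164). With the plastid covariate its log2 change was 1.81 (adjusted p = 0.00991). CML37, a second calmodulin-like calcium sensor, which is known from wounded leaves, had values of 6.34, 6.77 and 6.50 on the ATP arrays, against 5.50, 5.04 and 5.23 on the buffer arrays. It rose 2.44-fold (log2 change 1.28, SE 0.16, limma adjusted p = 0.00785), and by 1.51 with the covariate (adjusted p = 0.000346). AT3G10300, an EF-hand protein, and AT4G34150, which carries a calcium-dependent lipid-binding C2 domain, rose 1.85-fold and 1.56-fold (log2 SEs 0.15 and 0.12). The arrays of both groups stood apart in each of the 4 genes, as in all 151 called probe sets and in 33.1% of all probe sets. All 4 were also called with the plastid covariate. The list of calcium sensors named by symbol held 8 measured genes of 47, of which 1, CML37, was called, where 0.664% of all probe sets were. The list's median log2 difference was 0.24, and 7 of the 8 had a higher mean with ATP, where 44.8% of all probe sets did. Next to CML37 in this list, CML30 and CML23 had differences of 0.70 (SE 0.29) and 0.69 (SE 0.21), neither called. CML30 had a predicted plastid shift of 0.58 and CML23 one of -0.08. In the list of calcium channels, pumps and kinases, with IQD calmodulin-binding proteins, 0 of 23 measured genes were called by limma, against the same 0.664% of all probe sets, and the lowest adjusted p was that of iqd32 (log2 change -0.56, SE 0.11, limma adjusted p = 0.0551).

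An armadillo-repeat gene, a ubiquitin ligase gene and a pair of peptide genes rose. AT3G02840, whose product has armadillo repeats as do some plant ubiquitin ligases, stood at 7.71, 7.97 and 7.81 on the ATP arrays, against 5.70, 5.76 and 5.75 on the buffer arrays. It had the lowest adjusted p of all probe sets and rose 4.27-fold (log2 change 2.09, SE 0.13, limma adjusted p = 3.94e-05). With the covariate its change was 2.06. AT2G42360, a RING-type ubiquitin ligase, had values of 6.11, 6.76 and 6.50 with ATP and 5.44, 5.30 and 4.53 in buffer and rose 2.58-fold (log2 change 1.37, SE 0.27, limma adjusted p = 0.0489). With the covariate it no longer passed (log2 change 1.27, adjusted p = 0.0881). AT5G05300 and AT3G10930 encode small secreted peptides of the IDA-like class, relatives of the peptide that starts organ shedding. AT5G05300 stood at 5.88, 6.14 and 5.92 on the ATP arrays, against 4.40, 4.48 and 4.17 on the buffer arrays, and rose 3.09-fold (log2 change 1.63, SE 0.23, limma adjusted p = 0.016). AT3G10930 stood at 7.19, 7.41 and 6.78 on the ATP arrays, against 5.50, 5.72 and 5.48 on the buffer arrays, and rose 2.95-fold (log2 change 1.56, SE 0.17, limma adjusted p = 0.00372). Both peptides remained called with the covariate, at 1.37 and 1.46. The corresponding lists held no call among their measured genes. By limma 0 of 15 measured ubiquitin ligases, of 50 in the list, were called (median 0.03, lowest adjusted p for PUB22, log2 change 0.38, SE 0.11, limma adjusted p = 0.0971). Of 17 measured signalling peptides of the CLE and RALF families, of 98 in the list, 0 were called (median 0.03, lowest adjusted p for CLE41, log2 change 0.49, SE 0.19, limma adjusted p = 0.165). At 0.664% of all probe sets called, lists of this size would hold few calls or none.

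Several further risers encode proteins of the cell surface or ones linked to defence. AT5G18470, a mannose-binding lectin of the curculin type, stood at 8.94, 9.03 and 8.75 on the ATP arrays, against 7.58, 7.14 and 7.19 on the buffer arrays. It rose 3.03-fold (log2 change 1.60, SE 0.21, limma adjusted p = 0.0115). AT3G44630, a TIR-type immune receptor, had 6.97, 7.01 and 7.12 with ATP and 5.96, 5.62 and 5.40 in buffer and rose 2.59-fold (log2 change 1.37, SE 0.26, limma adjusted p = 0.0422). In both the ATP arrays were all higher than the buffer arrays, as in every called riser. The further TIR-type receptor genes AT5G22690 and AT4G19510 rose 1.89-fold and 1.46-fold, and with the covariate AT5G22690 passed and AT4G19510 did not (adjusted p = 0.0422 and 0.0604). Of protein kinases, the leucine-rich repeat receptor kinase AT3G47570 rose 1.88-fold (log2 change 0.91, SE 0.12, limma adjusted p = 0.0115), AT3G57760 rose 2.11-fold and PTI1-4 rose 1.48-fold. With the covariate AT3G47570 passed, while AT3G57760 and PTI1-4 did not (adjusted p = 0.0124, 0.0627 and 0.0666). AT5G19240, a glycoprotein with a lipid anchor at the cell surface, stood at 9.32, 9.75 and 9.20 on the ATP arrays, against 8.15, 8.03 and 7.37 on the buffer arrays, and rose 2.98-fold (log2 change 1.57, SE 0.23, limma adjusted p = 0.0164). AT1G56060, a small cysteine-rich membrane protein, had 6.92, 6.31 and 7.11 with ATP and 5.71, 5.20 and 5.22 in buffer and rose 2.65-fold (log2 change 1.40, SE 0.25, limma adjusted p = 0.0342). Its second ATP array lay lowest of the 3 but above each buffer array. The tetraspanin TET9 and the glycolipid transfer protein gene AT4G39670 rose 2.22-fold and 1.65-fold, and AT3G55840, whose product resembles a nematode resistance protein of beet, rose 1.97-fold. With the covariate the first 2 passed and AT3G55840 did not (adjusted p = 0.0622). The enzymes of the wall AT2G27500, a beta-1,3-glucanase, and AT1G02810, a pectin methylesterase, rose 1.9-fold and 1.93-fold, and both were called with the covariate.

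The rest of the 15 largest rises among called probe sets with exactly 1 gene encode proteins of metal binding, metabolism or unknown function. Called probe sets without a gene name here had changes of up to 2.14 and are not in that ranking. AT5G52760, with a heavy-metal-associated domain, stood at 5.96, 6.14 and 6.02 on the ATP arrays, against 4.30, 3.9955 and 4.29 on the buffer arrays. It rose 3.58-fold (log2 change 1.84, SE 0.13, limma adjusted p = 6.83e-05). AT5G52670, a gene of the same domain class on the same chromosome, rose 1.99-fold (log2 SE 0.20). AT1G19380, whose function is not known, had values of 10.63, 10.76 and 10.99 on the ATP arrays, against 9.41, 9.18 and 8.67 on the buffer arrays, and rose 3.27-fold (log2 change 1.71, SE 0.28, limma adjusted p = 0.026). Its predicted plastid shift was 0.49, and its change with the covariate 1.29. This shift was as large or larger for AT3G01830 (0.57), AT1G28600 (0.54), AT3G44630 (0.50) and AT1G55450 (0.49). With the covariate AT3G44630 and AT1G55450 changed by 0.95 and 0.92 (limma adjusted p = 0.0405 and 0.0374). AT1G28600, a GDSL-type lipase, had 9.12, 9.36 and 9.04 with ATP and 7.90, 7.68 and 7.13 in buffer and rose 3.04-fold (log2 change 1.60, SE 0.32, limma adjusted p = 0.0489). AT2G37540, a short-chain dehydrogenase, had 8.00, 6.79 and 7.56 with ATP and 6.11, 6.29 and 5.79 in buffer and rose 2.62-fold (log2 change 1.39, SE 0.28, limma adjusted p = 0.0489). Neither of these 2 passed with the plastid covariate (adjusted p = 0.0713 and 0.0529). The methyltransferase genes AT3G54150 and AT1G55450 stood at 7.27, 7.78 and 7.32 and at 9.43, 9.31 and 9.40 on the ATP arrays. On the buffer arrays they stood at 6.15, 5.81 and 6.04 and at 8.30, 8.02 and 7.74. They rose 2.75-fold and 2.57-fold (log2 SEs 0.22 and 0.26). A further 49 risers with 1 gene had log2 changes between 0.51 and 1.34, of which 33 were called with the covariate. Among them AT1G74450 and AT1G18740, both of a family related to BYPASS1, a gene that restrains a root-made growth inhibitor, rose 2.22-fold and 2.1-fold. Others were the serine carboxypeptidase-like gene scpl46, which rose 1.77-fold (log2 change 0.82, SE 0.13, limma adjusted p = 0.0248), and AT4G02200, of the drought-induced Di19 type, which rose 1.56-fold (log2 change 0.64, SE 0.13, limma adjusted p = 0.0488). AT5G39785 and AT4G15810 each have another probe set that was not called, at 0.20 and -0.27, beside the called log2 changes of 0.81 and 0.75. The SE of AT1G74450 was 0.11 on the log2 scale (limma adjusted p = 0.00162).

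Fewer transcripts fell. AT4G30170, a class III peroxidase, stood at 9.11, 9.08 and 8.75 on the ATP arrays, against 10.36, 10.19 and 10.03 on the buffer arrays. It fell by 1.21 on the log2 scale (log2 change -1.21, SE 0.14, limma adjusted p = 0.00649). AT2G37870, which resembles lipid transfer proteins, had values of 7.68, 7.68 and 7.68 on the ATP arrays, against 9.03, 9.21 and 8.34 on the buffer arrays, a change of -1.18 (SE 0.18, limma adjusted p = 0.0202). Its ATP arrays were nearly equal, and buffer replicate 3 was the lowest of its group but above them all. AT4G29690, which belongs to the family of nucleotide pyrophosphatases and phosphodiesterases, had 7.91, 7.56 and 7.29 with ATP and 8.55, 8.55 and 8.44 in buffer (log2 change -0.93, SE 0.18, limma adjusted p = 0.0445). AT1G10900, a phosphatidylinositol phosphate kinase, had 5.73, 5.96 and 5.51 with ATP and 6.75, 6.63 and 6.55 in buffer (log2 change -0.91, SE 0.16, limma adjusted p = 0.0339). In both, each ATP array lay below each buffer array, as in every called faller. AT2G34610, of unknown function, had 3.94, 4.85 and 4.18 with ATP and 5.25, 5.76 and 5.70 in buffer (log2 change -1.25, SE 0.21, limma adjusted p = 0.0292). Another 3 of the 10 largest falls with 1 gene, AT2G20515, AT5G02550 and AT5G54370, changed by -1.02, -0.94 and -0.90 (log2 SEs 0.20, 0.16 and 0.18). Their ATP arrays read 6.43, 6.66 and 6.28 for AT2G20515, 6.57, 6.73 and 6.16 for AT5G02550 and 7.59, 7.70 and 7.15 for AT5G54370. Each buffer array lay above each ATP array of the same gene, at 7.43 to 7.51, 7.32 to 7.54 and 8.34 to 8.44 in that order of genes. AT3G06680, a ribosomal protein gene of the L29e type, had 9.81, 9.42 and 9.27 with ATP and 10.27, 10.37 and 10.45 in buffer (log2 change -0.86, SE 0.15, limma adjusted p = 0.0298), and scpl48, serine carboxypeptidase-like as scpl46 is, changed by -0.68 (SE 0.12). These are of the other 11 fallers with 1 gene, which changed by -0.86 to -0.49, and of which 2 passed with the covariate, the TRAF-like gene AT5G26260 (-0.77) and AT5G58784 (-0.66). Of the 10 largest falls 4 passed with the covariate, AT4G30170, AT2G37870, AT2G20515 and AT5G02550, and of the 15 largest rises 12 did.

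**Figure D4:**
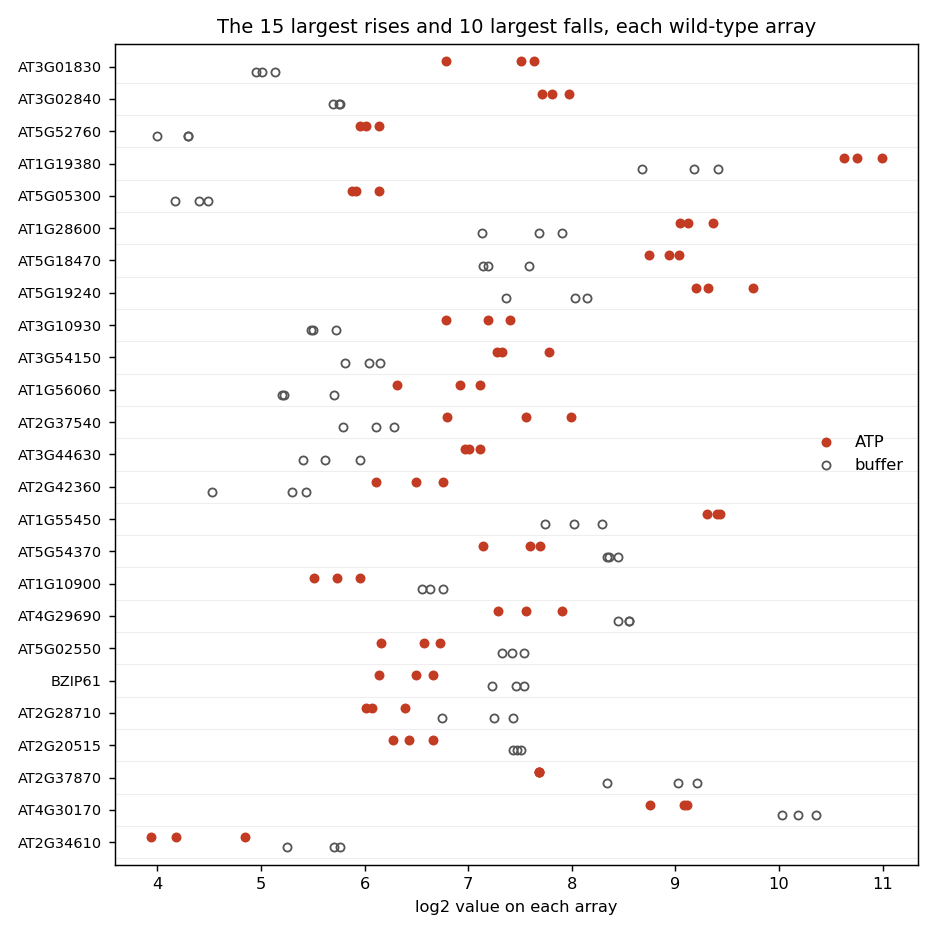
Rows are the 15 largest rises and 10 largest falls among called probe sets with 1 gene, in order of the change. Filled red points are the 3 ATP arrays and open grey points the 3 buffer arrays on the log2 scale, and in each row the groups do not overlap.

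Transcription factors were called in both directions. BZIP61, a basic leucine zipper factor, stood at 6.66, 6.49 and 6.14 on the ATP arrays, against 7.46, 7.54 and 7.23 on the buffer arrays (log2 change -0.98, SE 0.18, limma adjusted p = 0.0371). AT2G28710, a C2H2 zinc finger factor, had 6.07, 6.39 and 6.01 with ATP and 7.43, 7.25 and 6.75 in buffer (log2 change -0.99, SE 0.20, limma adjusted p = 0.0488). Both fell, and neither passed with the plastid covariate (adjusted p = 0.0639 and 0.0847). In the other direction AT1G19210, of the AP2/ERF class, rose 2.06-fold (log2 change 1.04, SE 0.16, limma adjusted p = 0.0204), and AT2G22880, a VQ-motif protein of the class that binds WRKY factors, rose 2.5-fold (log2 change 1.32, SE 0.22, limma adjusted p = 0.026). Both passed with the covariate. Of the 19 measured bZIP genes in the list BZIP61 was the only one called, 15 had a lower mean with ATP and the median was -0.07. Of all probe sets 0.664% were called and 44.8% had a higher mean with ATP. By limma 0 of 6 measured WRKY genes (median -0.01) and 0 of 9 bHLH genes (median -0.18) were called. At that share of all probe sets, lists of this size would hold few calls or none. The lowest adjusted p was that of WRKY47 in the first (log2 change -0.51, SE 0.15, limma adjusted p = 0.107) and bHLH104 in the second (log2 change -0.40, SE 0.15, limma adjusted p = 0.149). STZ, the zinc finger repressor also known as ZAT10 and the 1 measured gene of its list, had 9.53, 9.99 and 9.62 with ATP and 9.06, 8.88 and 8.50 in buffer (log2 change 0.90, SE 0.19, limma adjusted p = 0.0559), without overlap but not called.

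Lists of wall, detoxification and hormone genes, filled by symbol, held no called member, where 0.664% of all probe sets were called. The peroxidase AT4G30170 and the pectin methylesterase AT1G02810 were called but are named by locus only, so these lists do not hold them. The 10 xyloglucan endotransglucosylases, which cut and rejoin the xyloglucan of the wall, had a median log2 difference of 0.39, or 0.19 with the plastid covariate. Of these 10, 7 had a higher mean with ATP, where 44.8% of all probe sets did. XTH18 had 10.23, 10.28 and 10.36 with ATP and 9.64, 9.58 and 9.19 in buffer (log2 change 0.82, SE 0.18, limma adjusted p = 0.0639). The 19 expansins, which loosen walls, had a median of 0.01 and a range from -0.91 to 1.05. Their lowest adjusted p was that of EXPA18, with 6.22, 5.75 and 6.28 with ATP and 7.05, 7.31 and 6.61 in buffer. The 4 pectin genes had a median of 0.03, with the lowest adjusted p for ATPMEPCRB at 1.28 (SE 0.54), and 6 of the 7 class III peroxidases in the list were lower (median -0.35, lowest adjusted p for Prx37 at -0.35, SE 0.12). The 14 glutathione transferases spread from -0.91 to 1.61, with a median of -0.14. GSTU22, a tau-class transferase, had 7.53, 7.83 and 7.53 with ATP and 8.90, 8.40 and 8.31 in buffer (log2 change -0.91, SE 0.20, limma adjusted p = 0.0595). In the 50 UGT glycosyltransferases, which attach sugars to hormones and defence compounds, the median was -0.02 and the lowest adjusted p was that of UGT72E2 (log2 change -0.87, SE 0.19, limma adjusted p = 0.0624). The 24 cytochromes P450 had a median of -0.04, with the lowest adjusted p for CYP51G2 at -0.86 (SE 0.24).

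Hormone and transport lists also held no call, where 0.664% of all probe sets were called. Medians were -0.05 for 15 auxin genes, -0.30 for 4 abscisic acid genes, -0.33 for 5 lectins of the jacalin and Euonymus types and -0.16 for 6 nutrient transporters. Lowest in adjusted p within these lists stood GH3.17, an enzyme that conjugates auxin (log2 change -0.70, SE 0.18, limma adjusted p = 0.0835), the dehydrin COR47 (log2 change -0.37, SE 0.13, limma adjusted p = 0.153), JAL34 (-0.33, SE 0.10) and OCT1, a carnitine transporter (-0.74, SE 0.27). Another 11 lists had 1 or 2 measured genes, STZ included. In the other 10 the members with the lowest adjusted p had log2 differences of 0.34 for THE1 (receptor kinases), 0.55 for ATMPK13 (MAP kinases), 0.26 for TINY2 (ERF factors), -0.28 for NAC014, -0.14 for MYBC1 and -0.41 for JRG21 (jasmonate). They were 0.03 for EIN3 (ethylene), -0.28 for AT3G09000 (extensins and arabinogalactan proteins), -0.43 for PAP85 (apyrases and phosphatases) and 0.07 for ATHSP22.0 (heat shock), and none was called. The 7 lists of NLR receptors, NADPH oxidases, lipid transfer proteins, GDSL lipases, dirigent proteins, aquaporins and cytosolic ribosomal proteins had no gene found by symbol, so a called gene of such a class stands above under its locus only. Other lists also miss called genes named by locus only, such as AT1G19210 of the AP2/ERF class, the receptor kinase AT3G47570 and the C2H2 factor AT2G28710. A list without a call therefore does not describe its whole family.

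**Figure D5:**
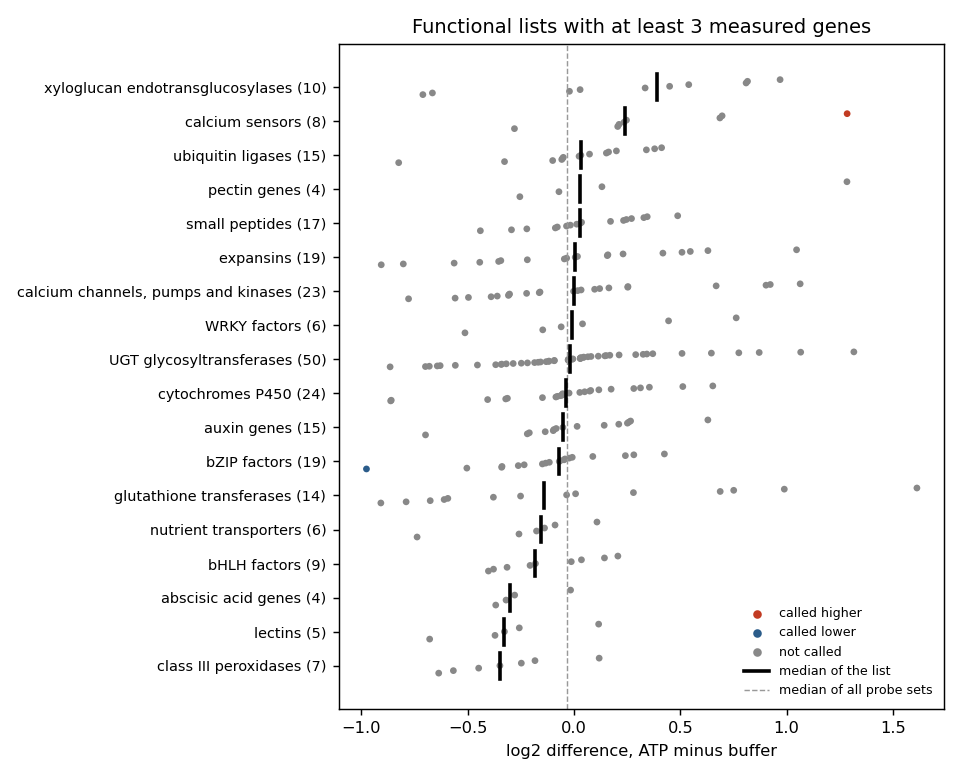
Points are measured genes of the 18 lists with at least 3 of them, placed by their log2 difference, ATP minus buffer, with the number of genes in brackets. Thick ticks are list medians, the dashed line is the median of all probe sets (-0.03), and the coloured points are CML37 (called higher) and BZIP61 (called lower).

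The number of calls rested on single arrays. Omitting an ATP array of the wild type gave 85 calls (replicate 1), 112 (replicate 2) or 18 (replicate 3), of which 69, 63 and 18 were among the 151. Omitting a buffer array of the wild type gave 44 (replicate 1), 6 (replicate 2) or 10 (replicate 3), of which 42, 6 and 10 were among the 151. Without an ATP array of dorn1-1 there were 111, 160 and 100 for replicates 1, 2 and 3. Leaving out the dorn1-1 buffer replicate 1, whose plastid-encoded mean of 9.11 stood far above the 7.64 and 7.95 of its group, gave 2316, and omitting its replicates 2 and 3 gave 359 and 89. A fit of the 6 wild-type arrays alone gave 2506 (11.0%), with 1328 higher (5.84%) and 1178 lower (5.18%), and these include all 151. AT3G02840, AT5G52760, AT3G10930 and AT1G74450 were called whichever of the 12 arrays was omitted, as were 2 risers without a gene name here, and this held for 0 fallers. AT4G30170 was called in 11 of these 12 fits.

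The wild-type change was set against the change in dorn1-1 by testing the difference of the 2 responses. It passed for 2 probe sets (0.00879%), while 1585 (6.97%) had an unadjusted p under 0.05. The response of AT5G52760 in dorn1-1, less that in the wild type, was -2.30 (SE 0.18, limma adjusted p = 0.000556), and for AT3G02840 it was -1.56 (SE 0.18, limma adjusted p = 0.0215). With any 1 wild-type array omitted, only 1 of these 2 differences was still called. The levels of AT5G52760 in dorn1-1 were 5.28 ± 0.09 with ATP and 5.74 ± 0.18 in buffer (SD, n = 3 each), so its dorn1-1 buffer level lay above the wild-type buffer level of 4.19 ± 0.17. AT3G02840 stood at 6.25 ± 0.26 with ATP and 5.72 ± 0.02 in buffer in dorn1-1 (SD, n = 3 each). For the other 149 called probe sets a difference between the genotypes was not shown. The median log2 change in dorn1-1 was 0.10 for the 109 called risers and -0.15 for the 42 called fallers. At an unadjusted limma p under 0.05, 106 of these risers and 37 of these fallers changed less in dorn1-1. The 151 were chosen for their wild-type change, which favours a smaller change in dorn1-1, so these counts are a description.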

How the data were processed

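Root RNA was amplified as biotinylated cRNA and measured on one-colour arrays, 1 per sample, in 4 groups of 3 taken from the sample titles. The deposited values are log2 signals from RMA (affy), per the submitters' processing notes. The sources used here do not give versions. RMA makes the arrays' distributions alike, which hides a shift of most transcripts together. Precision is limited by 3 arrays per group.

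One mean per group was fitted to all 12 arrays with limma 3.58.1 in R 4.3.3, with empirical Bayes moderation, and p-values were adjusted over 22746 probe sets. Single values per array were compared by exact permutation. Figures used matplotlib 3.10.9. With 200 of 22746 simulated probe sets changed, the wild-type comparison recovered 22.4% of 1.41-fold, 77.6% of 2-fold and 97% of 4-fold changes, with 6 wrong among 137 calls. The noise was drawn independently, without the shared shifts of the real arrays.

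Of the tested probe sets, 13513 list exactly 1 gene, 503 list several and 8730 are not listed in the platform annotation. RefSeq (TAIR10.1) matched 13436 of them, covering 13286 genes. What a locus encodes is background knowledge, not read from the files. Any called probe set with 1 gene could be named, with full values for the 15 largest rises and 10 largest falls, and each of 36 functional lists gives its called members or the one with the lowest adjusted p. Lists were filled by symbol and synonym, 6 false matches were removed, and at most 80.6% of a list was measured. A gene counts as measured where the annotation gives it a probe set with exactly 1 gene. Other genes of a list may lie among the unlisted probe sets. Genes, lists and tests were chosen with earlier results of these data known. Alternatives covered scaling, a dim filter, moderation, array weights, the replicate block, shoot covariates and omission of arrays.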

Additional observations from a re-analysis of the deposited data

Results flagged for a closer look

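The responses of the genotypes to ATP differed by a test of the difference itself for AT5G52760 (dorn1-1 change minus wild-type change -2.30 on the log2 scale) and AT3G02840 (-1.56). Their limma adjusted p-values were 0.000556 and 0.0215. Omitting any 1 of the wild-type arrays left only 1 of the 2 differences called. In the wild type every ATP array lay above every buffer array for both genes, as for every called riser.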

How the results depend on the processing

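The count of 151 wild-type calls moved with the settings. It was 2506 in the 6 wild-type arrays alone, 259 after cyclic loess, 6203 with array weights, 228 when moderation was robust with a trend and 54 with a 2-fold minimum. With the plastid-encoded mean as a covariate it was 65 in the 6 wild-type arrays alone and 49 without dorn1-1 buffer replicate 1, and with the nuclear shoot marker mean (added after the data were seen) 78. Leaving out 1 array gave 6 to 2316. Quantile and median scaling, the filter at the 40th percentile and leaving out cross-binding probe sets kept it within 1.5 times. The count of 2 for the difference in response was 6 with the plastid covariate, 6 with array weights, 4 with the shoot marker mean and 1 with the filter, which removes AT5G52760, and leaving out 1 array gave 1 to 3. The plastid-encoded difference of 0.65 ranged from 0.47 without wild-type ATP replicate 1 to 0.82 without wild-type ATP replicate 2. The causes were not tested. With the replicate number as a block 447 probe sets passed for the wild-type response, all 151 among them, and 1 for the difference. Same-numbered wild-type arrays had deviations from their group means that correlated at -0.03, -0.28 and -0.08, and same-numbered dorn1-1 arrays at 0.49, 0.56 and 0.04. Not every pair was above 0.1, so the numbers were not taken to pair the arrays. None of the 85 called 1-gene probe sets changed sign in any setting. Of the uncalled list members, signs changed for ATHSP22.0 (-0.0708 with the plastid covariate without dorn1-1 buffer replicate 1, and -0.0576 to 0.209 with 1 array left out), EIN3 (-0.0705 to 0.162 with 1 array left out), MYBC1 (0.0485 with the plastid covariate in 6 arrays) and PAP85 (0.853 in that fit, 0.0858 with the covariate without dorn1-1 buffer replicate 1, and -0.964 to 0.164 with 1 array left out). Signal over background is not given with the values, so its limit on dim probe sets is unknown.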

Other observations

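Some genes were called only once the plastid-encoded mean was in the fit, 60 probe sets in all. AT2G22760, a bHLH-type factor, had 7.28, 7.11 and 7.08 with ATP and 5.55, 5.98 and 6.08 in buffer, without overlap. Its log2 change was 1.29 without the covariate (limma adjusted p = 0.0871) and 1.80 with it (adjusted p = 0.00991). Within dorn1-1 alone AT2G22760 had a slope of -0.99 on the plastid-encoded mean, and its buffer values there had an SD of 0.94. AT5G64870, a flotillin-like membrane protein gene, had 7.50, 8.29 and 7.62 with ATP and 6.78, 6.58 and 6.82 in buffer, and changed by 1.08 without the covariate (limma adjusted p = 0.0597) and by 1.43 with it (adjusted p = 0.00425). The slope of AT5G64870 within dorn1-1 was -0.46. The plastid gene rpl32 changed by -1.43 with the covariate (adjusted p = 0.00342), which is built in part from rpl32 itself. These genes were chosen after their values were seen.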
